A study of Mus musculus with 141 samples.

Results

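Inbred mouse strains go back to a small number of founding stocks. The comparison described here sets the Swiss-derived strains FVB/NJ, SJL/J and SWR/J against the strains A/J, BALB/cJ, C3H/HeJ, CBA/J and DBA/2J, which come from the fancy-mouse stocks of the Castle and Little laboratories. The strain of each library was read from its label, and the groups were formed by that name alone. They hold 6 Swiss-derived and 10 Castle-derived libraries, 11.3% of the libraries of the series, with 1 female and 1 male library for each of the 8 strains. The series is RNA-seq of subcutaneous adipose tissue (inguinal white adipose tissue, iWAT) from 82 inbred and recombinant inbred strains of the Hybrid Mouse Diversity Panel. The mice of both groups were put on the same high-fat, high-sucrose (HF/HS) diet at an age of 8 weeks, stayed on it for another 8 weeks, and were fasted for 4 h. The labels name no drug, transgene or batch. Each library carries 1 mouse number, so a strain is known from 1 female and 1 male, and the strain was taken as the replicate. The comparison is thus of 3 strains with 5, and its p-values measure the spread between strains.

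Strains of common descent share long haplotypes, and genes that differ between stocks are known to gather in regions such as the H2 histocompatibility complex, the natural killer receptor cluster and arrays of duplicated genes. iWAT is a white fat depot in which some adipocytes can take on a thermogenic (beige) state, marked by the uncoupling protein *Ucp1* and by genes that burn fatty acids. It also holds vessels, fibroblasts, immune cells and, in part, a lymph node and mammary epithelium.

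The depth of the Swiss-derived libraries lay between 23794174 and 32338129 estimated counts, and that of the Castle-derived libraries between 25281997 and 41237559. Levels are given as CPM, the counts scaled to 1000000 per library, after a correction for library composition (TMM). A floor of 3 counts stood between 0.0727 and 0.126 CPM, and covers counting error only. The sum of 4 Y-linked genes ranged from 6.77 to 17.2 CPM in libraries labelled female and from 279 to 559 CPM in those labelled male. Defining adipocyte markers were abundant in all 16 libraries, with a summed level of 20 genes between 12250.3 and 66729.8 CPM. The summed level of 12 T cell markers ranged from 18.9 to 1277 CPM in the Swiss-derived and from 17.98 to 1017 CPM in the Castle-derived libraries, and that of 12 mammary epithelial markers from 26.9 to 72.7 CPM in males and from 568 to 2622 CPM in females. In bulk tissue, fewer cells of a type and less RNA per cell cannot be told apart.

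Of 18554 genes tested, 13 were higher and 17 lower in the Swiss-derived strains at an adjusted p under 0.05 (0.0701% and 0.0916% of the genes). The test was edgeR's quasi-likelihood test on the counts of the female and the male library summed per strain, with the Benjamini-Hochberg adjustment. The median log2FC over all genes was -0.0014, and 1993 genes had an unadjusted p under 0.05. Of the 30 genes called, 25 are annotated as protein coding and 5 as processed pseudogenes. The libraries of the groups did not overlap for 26 of them, 11 higher and 15 lower in the Swiss-derived strains. Over all genes tested, 41 were higher (0.221%) and 44 lower (0.237%) in every Swiss-derived library than in any Castle-derived one. The direction of all 30 calls was the same in the female libraries alone, and in the male libraries alone for the 29 that could be tested there. The calls were made on the sums of these same libraries, so this is no independent check. The number of calls depended on single strains. Without C3H/HeJ 0 genes were called higher and 1 lower (1814 at an unadjusted p under 0.05), and without SWR/J 1 and 7. The counts were 7 and 14 without A/J, 7 and 9 without CBA/J, and 16 and 11 without SJL/J. *Rps3a2* was the 1 gene of the 30 that passed in all 8 fits that left out a strain. When the 16 libraries were taken as separate samples with sex as a covariate, which treats the libraries of a strain as independent, 218 genes were called, of which 86 were higher and the rest lower (0.505% and 0.776% of the genes tested), and these included 29 of the 30. DESeq2 on the strain sums called 158 higher and 273 lower (0.856% and 1.48%), which included all 30.

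**Figure D1:**
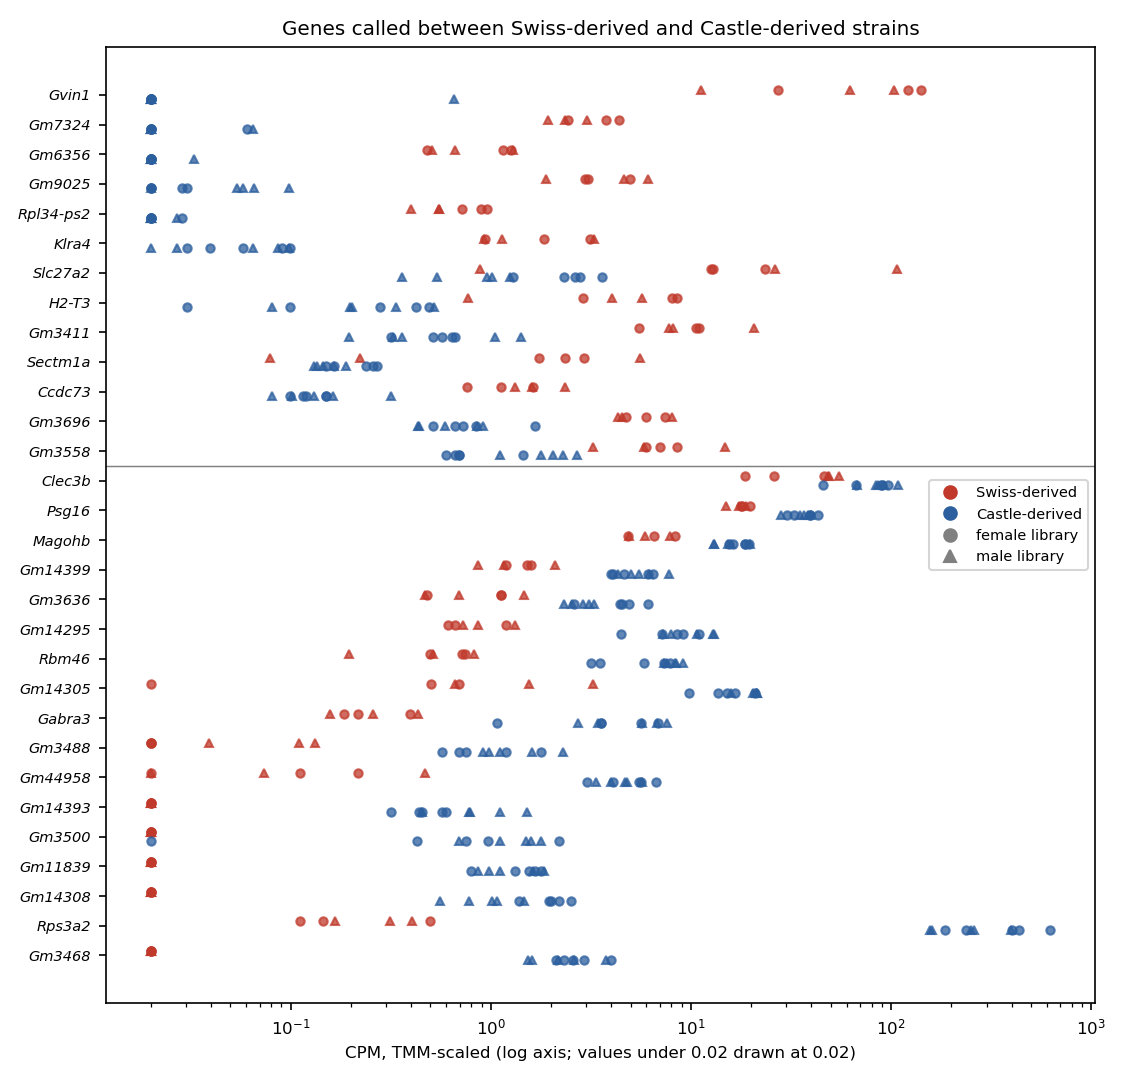
Level in each library (CPM, log axis) of the 30 genes called between Swiss-derived (red) and Castle-derived (blue) strains, with circles for female and triangles for male libraries and the grey line between genes higher and lower in Swiss-derived strains. The points of the groups overlap for *Slc27a2*, *Sectm1a*, *Clec3b* and *Gm3500* and lie apart for the other 26 genes.

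Many of these genes belong to families of near-identical copies. The authors assigned reads with kallisto, which matches stretches of the reads to annotated transcripts of the C57BL/6J reference genome, so reads of such copies can be split between them and their levels are uncertain. To describe this, the share of the 31-base words in a gene's transcripts that also occur in transcripts of other genes was computed from the GENCODE M21 annotation of GRCm38. It exceeded 50% in 20 of the 30 called genes, compared with 9.03% of the 18258 tested genes that have transcripts in that annotation, where the median was 2.17%. The other 10 called genes, with shares from 0% to 28.6%, were *Sectm1a*, *Clec3b*, *Rbm46*, *Gabra3*, *Ccdc73*, *H2-T3*, *Slc27a2*, *Psg16*, *Klra4* and *Magohb*.

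The call with the lowest p, *Rps3a2*, shows what such copies look like. It is a processed pseudogene on the minus strand of chromosome 14, 88123017 to 88123808 (GRCm38), of *Rps3a1*, the gene of a protein of the small ribosomal subunit. Its 792 bases differ from the coding sequence of *Rps3a1* at 4 positions, an identity of 99.5%. A second copy, *Rps3a3* on chromosome 13, is 99% identical over 791 bases. For *Rpl34*, which encodes a protein of the large subunit, the copies *Rpl34-ps1* on chromosome 6 and *Rpl34-ps2* on chromosome 13 are 99.4% and 97.2% identical over 353 bases. The stretches of 30 bases below hold the most differences between a copy and its parent, with the bases that differ in capitals, and show how few positions a read can be told apart by. They are transcript sequences of the C57BL/6J reference from GENCODE M21 and were not read from these libraries.
Rps3a2: aaaagtTaaaatgctgaagaaacccaagtC
Rps3a1: aaaagtAaaaatgctgaagaaacccaagtT
Rpl34-ps2: atggtccagcgtttgacatacTgcTgtagg
Rpl34: atggtccagcgtttgacatacCgcCgtagg

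In the Swiss-derived libraries *Rps3a2* was at 0.111 to 0.495 CPM, with a median of 0.240 CPM. The Castle-derived libraries held 156 to 624 CPM, with a median of 255 CPM. The groups did not overlap. The strain means were 0.273 ± 0.125 CPM (SD, n = 3) and 310.6 ± 135.6 CPM (SD, n = 5), and the log2FC was -10.16 ± 0.64 (SE, adjusted p = 0.0038). The parent gene *Rps3a1* was not called (log2FC 1.72 ± 0.82, adjusted p = 0.48) and its libraries overlapped. It was at 554 to 1266 CPM in the Swiss-derived libraries, at 48.3 to 130.3 CPM in A/J, C3H/HeJ and CBA/J, and at 490.4 to 779 CPM in BALB/cJ and DBA/2J. A/J, C3H/HeJ and CBA/J were also the strains in which *Rps3a3* was abundant, at 94.6 to 262 CPM, compared with 0.0392 to 0.576 CPM in all other libraries. The sum over the 3 loci was 975 ± 147 CPM (SD, n = 3) in Swiss-derived and 700.7 ± 146 CPM (SD, n = 5) in Castle-derived strains, and its library values overlapped, with 554 to 1267 and 393 to 1017 CPM.

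At the *Rpl34* loci the arrangement was the reverse, with the parent low and a copy high in the Swiss-derived libraries. *Rpl34-ps2* was called higher in the Swiss-derived strains, at 0.398 to 0.958 CPM in their libraries compared with 0 to 0.0288 CPM in the Castle-derived ones (log2FC 6.34 ± 0.66, adjusted p = 0.014). These levels were small beside those of the other loci. *Rpl34-ps1* was at 84.4 to 169.9 CPM in the Swiss-derived libraries, at 31.9 to 52.5 CPM in C3H/HeJ and DBA/2J, and at 0 to 0.0338 CPM in A/J, BALB/cJ and CBA/J (log2FC 3.08 ± 1.99, adjusted p = 0.56). *Rpl34* itself was at 21.8 to 41.4 CPM in the Swiss-derived and 71.3 to 194 CPM in the Castle-derived libraries, which do not overlap (log2FC -1.83 ± 0.26, adjusted p = 0.062). Summed over the 3 loci, the strain means were 174 ± 16.5 CPM (SD, n = 3) and 136.8 ± 21.7 CPM (SD, n = 5), with library values from 106.8 to 209.6 and from 84.8 to 194 CPM. The part of the sequence differences of the strains from the reference in these assignments was not tested.

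**Figure D2:**
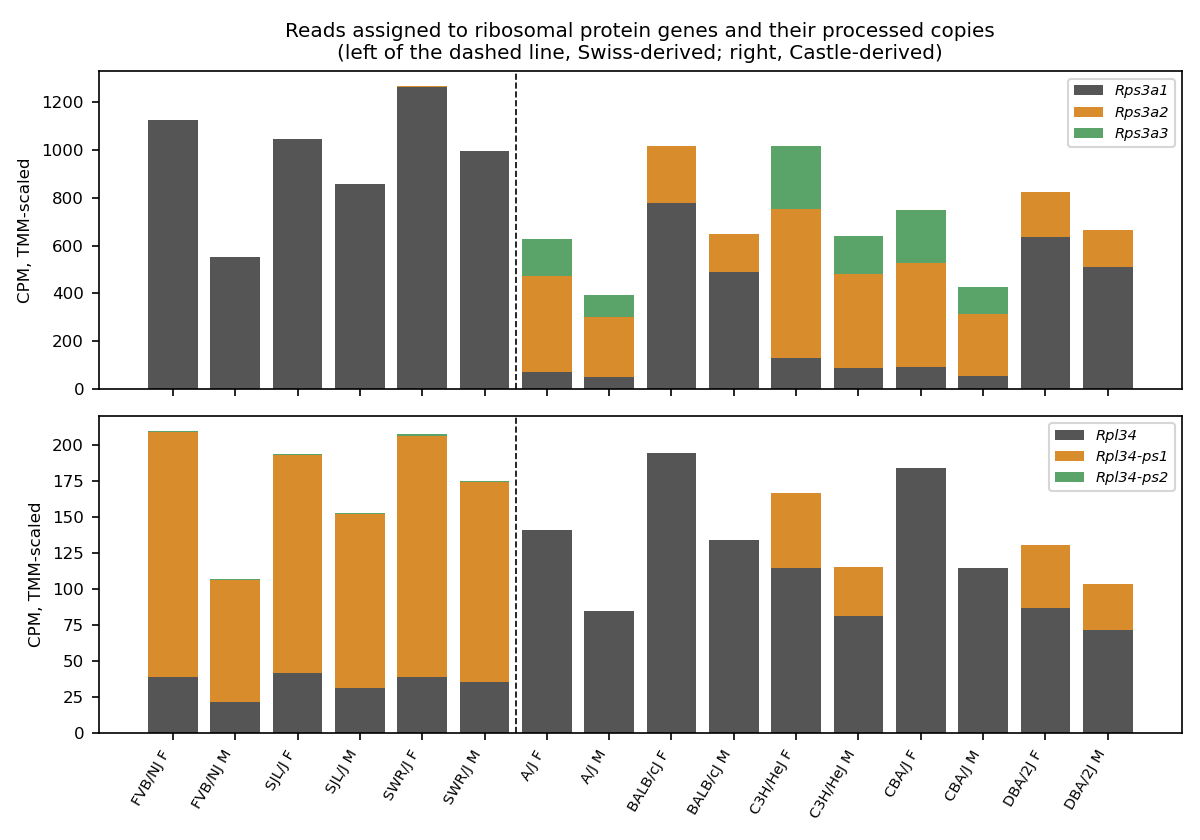
Stacked level (CPM) assigned in each library to *Rps3a1* and its copies (top) and to *Rpl34* and its copies (bottom), with Swiss-derived libraries left of the dashed line and F and M for female and male. The Swiss-derived libraries hold nearly all of the first sum in *Rps3a1* and most of the second in *Rpl34-ps1*, while the summed heights overlap between the groups.

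By position, 18 of the 30 called genes lay in 4 segments in which neighbouring calls were under 5 Mb apart. The first, chromosome 14 from 5365794 to 7568566, held 8 of the 25 genes tested there, all predicted genes with 67.1% to 100% of their words shared. *Gm3411*, *Gm3696*, *Gm3558* and *Gm6356* were higher in the Swiss-derived strains. *Gm3411*, the most abundant of them, was at 5.498 to 20.8 CPM in the Swiss-derived libraries and at 0.195 to 1.42 CPM in the Castle-derived ones (log2FC 4.10 ± 0.43, adjusted p = 0.014). *Gm3468*, *Gm3488*, *Gm3500* and *Gm3636* were lower. *Gm3468* was at 0 in all 6 Swiss-derived libraries and at 1.53 to 3.98 CPM in the Castle-derived ones, at least 20.3-fold lower when the Swiss-derived strains are set at the floor of 3 counts per library. *Gm3500* was at 0 in the same libraries and at up to 2.19 CPM in the Castle-derived ones, with the A/J female also at 0. Genes that were higher and genes that were lower thus lay side by side.

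The second segment, chromosome 2 from 175061549 to 176811223, lies in a region known for tandem genes of KRAB zinc finger repressor proteins. All 5 genes called there, of 25 tested, were lower in the Swiss-derived strains, with 71.5% to 98.6% of their words shared. *Gm14305* was the most abundant, at 0 to 3.26 CPM in the Swiss-derived and 9.76 to 21.5 CPM in the Castle-derived libraries (log2FC -4.07 ± 0.41, adjusted p = 0.014). *Gm14295* was at 0.614 to 1.33 CPM compared with 4.49 to 13.1 CPM. *Gm14308* and *Gm14393* were at 0 in every Swiss-derived library, at least 11.9-fold and 5.58-fold lower against the floor. *Gm14399* differed least, with strain means of 1.40 ± 0.228 CPM (SD, n = 3) and 5.41 ± 1.02 CPM (SD, n = 5).

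The third segment, chromosome 6 from 130043731 to 131293244, held *Klra4*, *Magohb* and *Gm44958*. *Klra4* encodes the activating natural killer receptor Ly49D, and was at 0.929 to 3.30 CPM in the Swiss-derived libraries and at or under 0.0992 CPM in the Castle-derived ones (log2FC 4.88 ± 0.51, adjusted p = 0.014). The neighbouring *Klra1*, an inhibitory receptor of the same family, was at 0.847 to 10.1 CPM and 0.027 to 0.319 CPM and was not called (log2FC 4.47 ± 0.85, adjusted p = 0.18). *Magohb*, a core protein of the exon junction complex, was at 4.88 to 8.32 CPM in the Swiss-derived and 13.001 to 19.8 CPM in the Castle-derived libraries (log2FC -1.39 ± 0.19, adjusted p = 0.041). *Gm44958*, a processed pseudogene annotated within the bounds of *Magohb* on the same strand, with which it shares 69.5% of its words, was lower as well, at 0 to 0.471 CPM compared with 3.01 to 6.71 CPM. Reads of this pair can be split between them. The fourth segment, chromosome 13 from 111882393 to 116154134, held *Gm9025* and *Rpl34-ps2*, 2 of 24 genes tested. *Gm9025* was at 1.88 to 6.11 CPM in the Swiss-derived and 0 to 0.0977 CPM in the Castle-derived libraries. Of its words 97.8% also occur in another annotated entry of the same symbol.

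The called genes with few shared words outside these segments included *Psg16*, *Rbm46*, *Gabra3* and *Clec3b*, all lower in the Swiss-derived strains. *Psg16*, a member of the pregnancy-specific glycoprotein family on chromosome 7 (17074040 to 17133450), was at 14.9 to 19.7 CPM in the Swiss-derived libraries and 28.1 to 43.4 CPM in the Castle-derived ones. The strain means were 17.8 ± 1.12 CPM (SD, n = 3) and 36.3 ± 4.83 CPM (SD, n = 5), a log2FC of -1.05 ± 0.13 (adjusted p = 0.033). *Rbm46* on chromosome 3 (82837228 to 82876483), which encodes an RNA-binding protein known from germ cells, was at 0.196 to 0.830 CPM compared with 3.17 to 9.12 CPM (log2FC -3.54 ± 0.33, adjusted p = 0.011). *Gabra3* on the X chromosome (72432681 to 72656848), the alpha 3 subunit of the GABA-A receptor, was at 0.157 to 0.431 CPM compared with 1.07 to 7.62 CPM (log2FC -4.09 ± 0.45, adjusted p = 0.018). *Clec3b*, which encodes the plasminogen-binding protein tetranectin, was the most abundant of this set. Its libraries overlapped, with 18.6 to 55.2 CPM in the Swiss-derived and 45.7 to 108.8 CPM in the Castle-derived ones (log2FC -1.05 ± 0.14, adjusted p = 0.041).

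Among the genes that were higher, *Ccdc73*, a coiled-coil gene on chromosome 2, was at 0.759 to 2.36 CPM in the Swiss-derived and 0.0810 to 0.319 CPM in the Castle-derived libraries (log2FC 3.29 ± 0.37, adjusted p = 0.020). *Sectm1a*, which encodes a secreted and transmembrane protein, was at 1.75 to 5.54 CPM in the 3 Swiss-derived female libraries and the SJL/J male library, but at 0.221 and 0.0785 CPM in the FVB/NJ and SWR/J males. These males lay within and below the 0.130 to 0.271 CPM of the Castle-derived libraries (log2FC 3.54 ± 0.46, adjusted p = 0.039). *Gvin1* on chromosome 7, a very large interferon-inducible GTPase, was at 11.2 to 141.7 CPM in the Swiss-derived libraries, with SWR/J lowest. It was at 0 in 9 Castle-derived libraries and at 0.658 CPM in the C3H/HeJ male (log2FC 10.21 ± 1.29, adjusted p = 0.036). Of its words 99.7% are shared with other genes of its family, so the level could not be assigned to 1 copy. *Gm7324* on chromosome 14, at 1.92 to 4.39 CPM compared with 0 to 0.0651 CPM, and the pseudogene *Gm11839* on chromosome 4, at 0 in all Swiss-derived libraries and at least 10.8-fold lower against the floor, were called as well.

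Histocompatibility genes were next. The H2 complex on chromosome 17 is inherited as a block, and by their known haplotypes none of the Swiss-derived strains (q in FVB/NJ and SWR/J, s in SJL/J) shares it with a Castle-derived strain (a in A/J, d in BALB/cJ and DBA/2J, k in C3H/HeJ and CBA/J). Of 39 tested genes of a list for MHC and antigen presentation, 1 was called higher and none lower, beside 0.0701% and 0.0916% of all genes. The list had a median log2FC of 0.46. Without overlap between the libraries, 2 members were higher and 1 lower in the Swiss-derived strains, beside 0.221% and 0.237% of all genes. The called gene was *H2-T3* (36185572 to 36190287), the class Ib thymus leukaemia antigen. Its levels were 8.51 and 0.773 CPM in the FVB/NJ female and male, 8.06 and 4.02 CPM in SJL/J and 2.91 and 5.73 CPM in SWR/J, while the Castle-derived libraries reached 0.521 CPM at most (log2FC 4.19 ± 0.56, adjusted p = 0.041). The FVB/NJ male library, with the lowest level of *H2-T3*, was also the Swiss-derived library with the lowest summed T cell markers, 18.9 CPM compared with 463 to 1277 CPM in the other 5. The part of lymphocytes in this value was not tested.

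The other H2 genes described were picked after their values were seen, and none of them passed the test. *H2-Ea-ps* is the alpha chain gene of the class II E molecule, annotated as a pseudogene in the reference, and strains of the q and s haplotypes are known to lack this molecule. It was at 0 and 0.0361 CPM in SJL/J, below the floor, 5.30 to 46.4 CPM in FVB/NJ and SWR/J, and 52.01 to 447 CPM in the Castle-derived libraries, which did not overlap (log2FC -3.99 ± 1.47, adjusted p = 0.45). *H2-Eb1*, the beta chain, was at 8.99 to 21.9 CPM in FVB/NJ and SWR/J but at 437 and 327 CPM in the SJL/J female and male, compared with 55.2 to 346 CPM in the Castle-derived libraries (log2FC -0.64 ± 1.14, adjusted p = 0.82). Both chains were therefore low in FVB/NJ and SWR/J, and in SJL/J only the alpha chain was. *H2-T10* was at 57.7 to 81.4 CPM in the Swiss-derived and 5.79 to 48.5 CPM in the Castle-derived libraries, with A/J nearest (log2FC 1.42 ± 0.47, adjusted p = 0.43). *H2-T22* was at 10.7 to 21.2 CPM in the Swiss-derived libraries and at 10.6 and 11.4 CPM in A/J, but at 139.7 to 242 CPM in the other 4 Castle-derived strains (log2FC -3.10 ± 0.82, adjusted p = 0.36). Reads of the class Ib genes can be split between near copies.

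**Figure D3:**
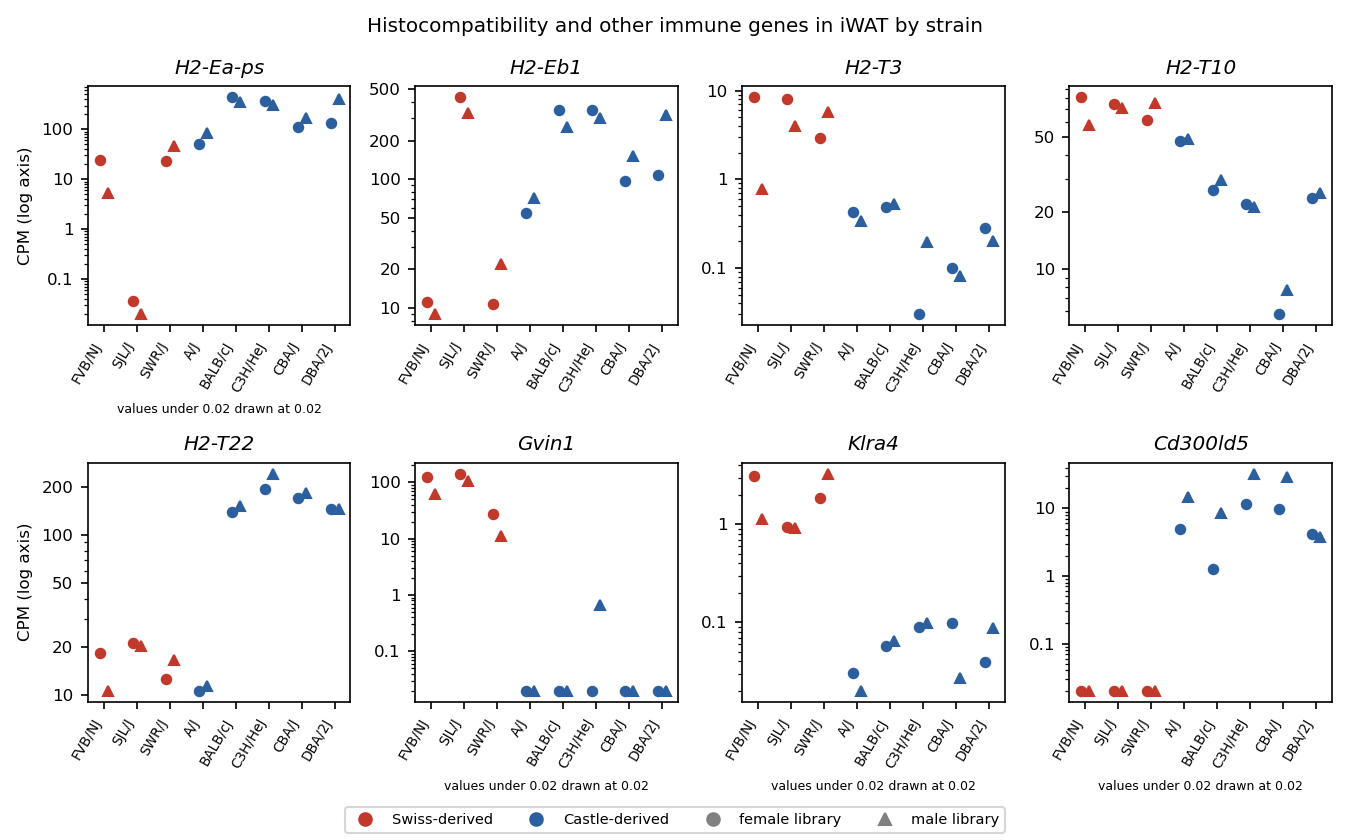
Level (CPM, log axis) in each library of 8 immune genes by strain, in red for Swiss-derived and blue for Castle-derived strains, with circles for female and triangles for male libraries. *H2-Eb1* is high in SJL/J and low in FVB/NJ and SWR/J, *H2-T22* is low in A/J as in the Swiss-derived strains, and *Cd300ld5* is at 0 in all 6 Swiss-derived libraries.

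Among the metabolic lists, the thermogenic genes mostly had higher levels in the Swiss-derived strains. Of 18 genes tested, 17 had a log2FC above 0, with a list median of 1.51 compared with -0.0014 over all genes, but only 1 was called, *Slc27a2*, which encodes a fatty acid transporter and very long-chain acyl-CoA synthetase. At an unadjusted p under 0.05, 12 of the 18 were higher and 0 lower, beside 3.69% higher and 7.06% lower over all genes. DESeq2 called 9 of the 18 higher (0.856% of all genes), and the 16 libraries taken as samples gave 4 (0.505% of all genes). *Slc27a2* (chromosome 2, 126552407 to 126588243) was at 23.4 and 0.884 CPM in the FVB/NJ female and male, 12.9 and 107.2 CPM in SJL/J, and 12.6 and 26.2 CPM in SWR/J. In the Castle-derived libraries it was between 0.362 and 3.58 CPM, so that the FVB/NJ male alone fell among them. The log2FC was 4.22 ± 0.55 (adjusted p = 0.037), and 3.18 without SJL/J, the strain with the highest library. The call was lost in the male libraries alone (log2FC 5.77) but not in the female ones (log2FC 2.72), and it was lost without A/J, BALB/cJ, C3H/HeJ, CBA/J, DBA/2J or SWR/J. It was also lost by limma on log2 CPM (log2FC 3.38), log2(TPM + 1) (2.53) and log2(TPM + 0.1) (3.11), with at least 10 counts required in every library (4.25), and with all 59 strains in the fit (4.23). Over all alternatives its adjusted p ranged from 5.76e-12 with DESeq2 to 0.26 with the 59 strains.

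*Ucp1* itself was not called (log2FC 2.65 ± 1.03, adjusted p = 0.45). It was at 455 and 6.67 CPM in the FVB/NJ female and male, 355 and 1669.6 CPM in SJL/J, and 76.2 and 649.7 CPM in SWR/J, compared with 4.57 to 299 CPM in the Castle-derived libraries, where DBA/2J was highest in both sexes (281 and 299 CPM). The female library was thus above the male in FVB/NJ and below it in SJL/J and SWR/J. Genes of the program other than *Slc27a2* and *Ucp1* were singled out after their values were seen, and none of them was called. *Cox8b*, an isoform of a cytochrome c oxidase subunit found in brown fat and muscle, had strain means of 88.9 ± 8.87 CPM (SD, n = 3) and 33.6 ± 9.84 CPM (SD, n = 5) (log2FC 1.37 ± 0.22, adjusted p = 0.088). Its libraries overlapped, with 27.7 to 167 CPM in the Swiss-derived and 15.9 to 60.7 CPM in the Castle-derived ones. *Cox7a1*, another such isoform, had strain means of 29.8 ± 8.98 and 6.04 ± 4.10 CPM (log2FC 2.28 ± 0.47, adjusted p = 0.25), with overlapping libraries at 4.97 to 60.9 and 1.49 to 13.7 CPM. *Cidea*, a lipid droplet protein of brown and beige adipocytes, had 196 ± 59.5 and 40.4 ± 28.5 CPM (log2FC 2.25 ± 0.51, adjusted p = 0.29). *Elovl3*, a fatty acid elongase induced by cold, ranged from 0.295 CPM in the FVB/NJ male to 286 CPM in the SJL/J male and from 0.203 to 19.3 CPM in the Castle-derived libraries (log2FC 3.66 ± 0.86, adjusted p = 0.32). *Prdm16*, *Ebf2* and *Dio2*, which regulate or serve the same program, had log2FC values of -0.28, 0.0092 and 0.26. Muscle shares several of these isoforms. The summed level of 13 skeletal muscle markers lay between 12.2 and 103.4 CPM in the Swiss-derived libraries. It lay between 25.6 and 143 CPM in the Castle-derived ones, and the part of muscle in these differences was not tested. The summed thermogenic genes were at 428 to 4382 CPM and 196 to 908 CPM.

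Genes of fatty acid oxidation, of which *Cpt1b* is also on the thermogenic list, had a median log2FC of 0.43 over 26 genes, with 21 above 0. None was called, 11 were higher and 1 lower at an unadjusted p under 0.05 (3.69% and 7.06% of all genes), and DESeq2 called 4 higher and 1 lower (0.856% and 1.48% of all genes). *Eci1*, an isomerase of mitochondrial beta-oxidation, had the lowest p (log2FC 0.61 ± 0.12, adjusted p = 0.23), with strain means of 88.6 ± 4.47 CPM (SD, n = 3) and 56.8 ± 7.93 CPM (SD, n = 5). The muscle and brown fat isoform *Cpt1b* of carnitine palmitoyltransferase, which admits fatty acids to mitochondria, was at 35.8 to 329 CPM and 8.57 to 80.02 CPM (log2FC 2.07 ± 0.62, adjusted p = 0.39), with 79.7% of its words shared with other annotated genes. *Cpt1a*, the isoform of liver and most tissues, had a log2FC of -0.31. *Acadvl*, the first dehydrogenase for very long chains, and *Ppara*, the nuclear receptor that drives many of these genes, had log2FC values of 0.90 ± 0.22 and 1.62 ± 0.39 (adjusted p = 0.32 for both).

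The list of 81 nuclear genes of oxidative phosphorylation shares *Cox8b* and *Cox7a1* with the thermogenic list. Of the 81, 67 had a log2FC above 0 and the median was 0.23. None was called, 16 were higher and 1 lower at an unadjusted p under 0.05 (3.69% and 7.06% of all genes), and DESeq2 called 4 higher (0.856% of all genes). The 13 mitochondrially encoded genes all had a log2FC above 0, with a median of 0.50, and none was called (lowest p, *mt-Nd6*, log2FC 0.55 ± 0.19, adjusted p = 0.44). They took 12.8% ± 2.16 (SD, n = 3) of all counts in the Swiss-derived and 8.82% ± 1.498 (SD, n = 5) in the Castle-derived strains, a difference of 4.03 percentage points (two-sided exact permutation test over strains, p = 0.036, the smallest that 3 strains against 5 allow). The shares of the Swiss-derived libraries were 13.2% and 8.07% in the FVB/NJ female and male, 9.997% and 19.95% in SJL/J and 8.998% and 16.8% in SWR/J, while the Castle-derived ones lay between 5.81% and 13.7%. The strain means did not overlap but the libraries did, and the difference was 1.36 points in females (p = 0.54, exact permutation test) and 6.69 points in males (p = 0.14, exact permutation test). Without SJL/J it was 2.96 points. As with *Ucp1*, the female was above the male in FVB/NJ and below it in the other two.

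**Figure D4:**
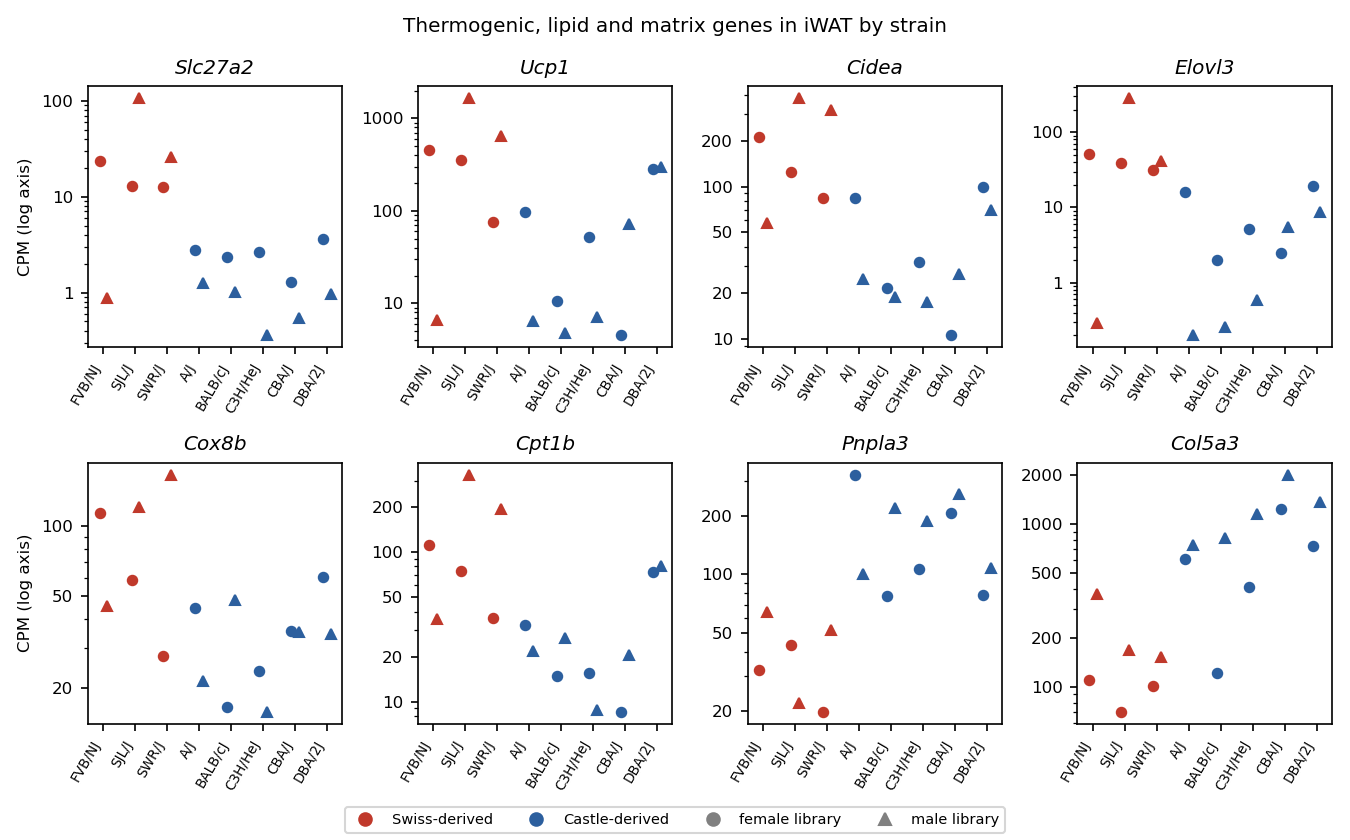
Level (CPM, log axis) in each library of 8 metabolic and matrix genes by strain, in red for Swiss-derived and blue for Castle-derived strains, with circles for female and triangles for male libraries. The FVB/NJ male lies far below the other Swiss-derived libraries for *Slc27a2*, *Ucp1* and *Elovl3*, and *Pnpla3* alone among these 8 genes separates all libraries of the groups.

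Genes of lipid storage and of adipocyte growth mostly had a log2FC below 0. Of 20 adipocyte genes 18 had a log2FC below 0 (median -0.54), and of 16 tested genes associated with fat mass expansion 15 did (median -1.07). No member of either list was called, 4 and 3 were lower at an unadjusted p under 0.05 (7.06% of all genes), and DESeq2 called 0 and 2 lower (1.48% of all genes). *Cidec*, which enlarges lipid droplets, had the lowest p of the first list (log2FC -0.93 ± 0.32, adjusted p = 0.44), and *Slc7a10*, an amino acid transporter of adipocytes, of the second (log2FC -1.10 ± 0.29, adjusted p = 0.36). Leptin, whose transcript follows fat mass and whose gene *Lep* is on both lists, varied widely within the groups. *Lep* was at 217 and 2372 CPM in the FVB/NJ female and male and at 27.6 to 204 CPM in SJL/J and SWR/J, compared with 68.2 to 3167 CPM in the Castle-derived libraries (log2FC -1.54 ± 1.09, adjusted p = 0.59). The growth-associated gene *Mest* showed the same order, with 68.9 and 704 CPM in FVB/NJ, 2.71 to 24.9 CPM in the other Swiss-derived libraries, and 7.98 to 2000.4 CPM in the Castle-derived ones. For both genes the 4 libraries of SJL/J and SWR/J lay below every Castle-derived library but the BALB/cJ female, while those of FVB/NJ lay within the Castle-derived range. Fat mass of these mice was not analysed here.

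Among 22 lipogenesis genes the median log2FC was -0.097 and none was called. In 1 of them every Swiss-derived library lay below any Castle-derived one, beside 0.237% of all genes. *Pnpla3*, a lipid droplet enzyme under the control of SREBP1c, was at 19.8 to 64.1 CPM with a median of 37.9 CPM in the Swiss-derived libraries and at 77.5 to 324 CPM with a median of 148 CPM in the Castle-derived ones. The strain means were 38.95 ± 8.14 CPM (SD, n = 3) and 167 ± 55.9 CPM (SD, n = 5), and the log2FC of -2.15 ± 0.33 missed the threshold (adjusted p = 0.069). It passed with DESeq2 and in the fit of the 16 libraries, which called 1.48% and 0.776% of their genes lower. *Fgf1*, a growth factor of adipose tissue remodelling that is on none of the lists and was picked for this pattern, did not overlap either, with 1.37 to 20.8 CPM compared with 26.3 to 120.03 CPM (log2FC -3.06 ± 0.65, adjusted p = 0.26). *Ldhb*, the lactate dehydrogenase subunit of oxidative tissues, is likewise on no list. It was at 58.7 to 248 CPM and 26.9 to 62.3 CPM (log2FC 1.79 ± 0.27, adjusted p = 0.069).

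Of 40 genes of collagen and matrix, 37 had a log2FC below 0 and the median was -0.64. None was called in the main test, 18 were lower and 2 higher at an unadjusted p under 0.05 (7.06% and 3.69% of all genes), and DESeq2 called 4 lower (1.48% of all genes). *Col5a3*, a type V collagen chain, was at 70.4 to 371 CPM in the Swiss-derived and 121 to 2012.6 CPM in the Castle-derived libraries (log2FC -2.55 ± 0.49, adjusted p = 0.19). In each of the 8 strains its level was higher in the male than in the female library, and the BALB/cJ female alone of the Castle-derived libraries lay within the Swiss-derived range. Summed over the list, the level was 12006 ± 2446 CPM (SD, n = 3) and 20817 ± 6045 CPM (SD, n = 5). The summed adipocyte genes were at 31523 ± 13119.7 and 47761 ± 10595 CPM, and their part in the collagen levels was not tested. Of the macrophage markers, 5 had a log2FC above 0 and 11 below, and 1 of the 16, *Lpl*, is also on the adipocyte list.

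**Figure D5:**
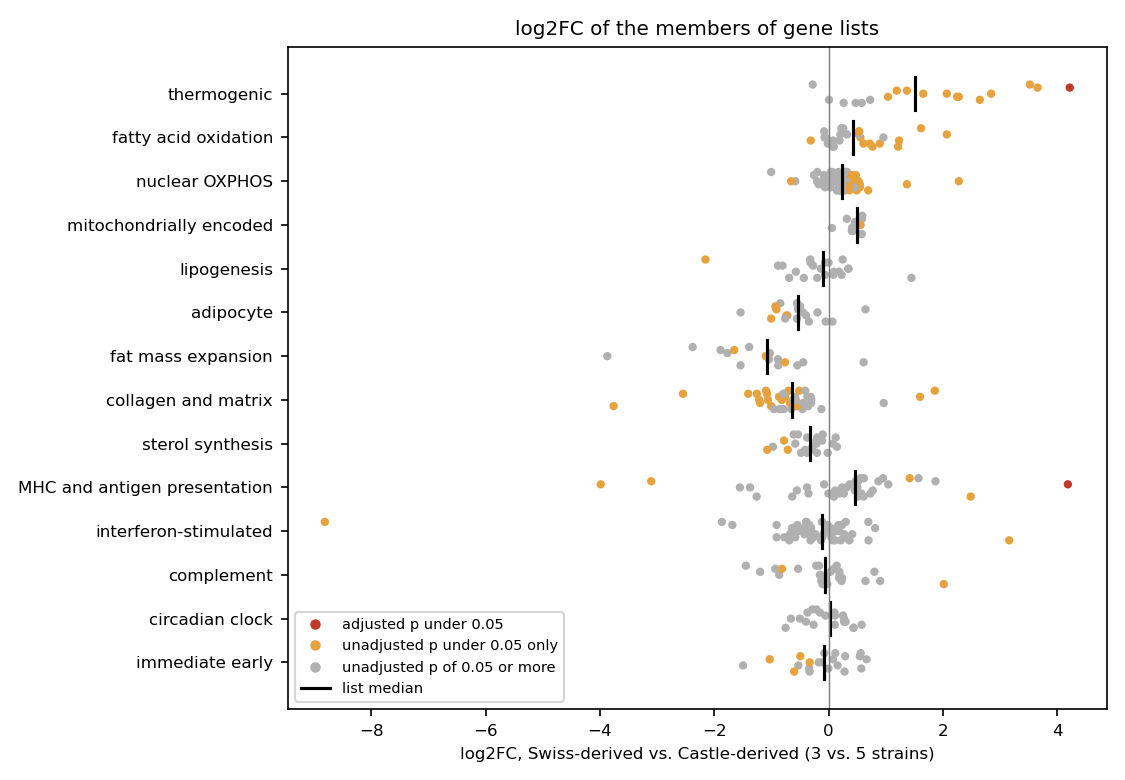
log2FC of Swiss-derived vs. Castle-derived strains (horizontal axis) for each tested member of 14 gene lists, with red for an adjusted p under 0.05, orange for an unadjusted p under 0.05 only, grey for the rest, and a black bar at the list median. Thermogenic genes lie mostly above 0 and genes of fat mass expansion, collagen and matrix mostly below, but only *Slc27a2* and *H2-T3* are red.

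The remaining lists held no called gene. At an unadjusted p under 0.05 at most 7 members of a list passed, in xenobiotic metabolism (1 higher and 6 lower of 53). Over all genes 3.69% were higher and 7.06% lower at that threshold. DESeq2 called at most 2 members of any of these lists, beside 0.856% higher and 1.48% lower over all genes. Interferon-stimulated genes had a median log2FC of -0.11 over 58 genes. The member with the lowest p, *Ifi44l*, was at or under 0.0371 CPM in the Swiss-derived libraries, below the floor, and at 0 in DBA/2J, but at 3.44 to 33.3 CPM in the other 4 Castle-derived strains (adjusted p = 0.34). The median was -0.059 over 28 complement genes (lowest p, *Cfi*, adjusted p = 0.37), -0.22 over 53 genes of xenobiotic metabolism (*Gstp2*, adjusted p = 0.13), 0.025 over 20 clock genes (*Clock*, adjusted p = 0.49), -0.074 over 21 immediate early genes (*Fosl2*, adjusted p = 0.41), -0.32 over 23 sterol synthesis genes (*Lss*, adjusted p = 0.45), -0.15 over 21 genes of the growth hormone and IGF axis (*Igfbp2*, adjusted p = 0.34) and -0.096 over 17 genes of futile cycles (*Ckb*, adjusted p = 0.45). Among 38 tested genes with known strain alleles (median -0.083), *Glo1* had the lowest p. Glyoxalase 1, its product, detoxifies methylglyoxal, and the gene is known to be duplicated in some inbred strains. It was at 60.9 to 72.8 CPM in the Swiss-derived libraries, at 62.9 and 88.01 CPM in BALB/cJ and at 132.99 to 261 CPM in the other Castle-derived strains (log2FC -1.21 ± 0.31, adjusted p = 0.36). *Tlr4*, which is mutated in C3H/HeJ, had a log2FC of -0.45 (adjusted p = 0.39).

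Markers of other cell types were not called either, with medians of -0.24 over 16 macrophage (lowest p, *Trem2*, adjusted p = 0.44), 1.11 over 12 T cell (*Cd3d*, adjusted p = 0.59), 0.48 over 12 B cell (*Ighm*, adjusted p = 0.72), 0.25 over 10 mast cell (*Fcer1a*, adjusted p = 0.55), -0.30 over 12 endothelial (*Vwf*, adjusted p = 0.39), -0.11 over 12 progenitor (*Cd34*, adjusted p = 0.45), -0.44 over 10 mural (*Notch3*, adjusted p = 0.46), -0.24 over 9 Schwann cell (*Pmp22*, adjusted p = 0.45), 0.30 over 12 mammary epithelial (*Csn3*, adjusted p = 0.45), -0.50 over 13 skeletal muscle (*Mb*, adjusted p = 0.45) and -0.35 over 6 erythroid genes (*Hbb-bs*, adjusted p = 0.60). None of the 4 Y-linked genes was called. *Cd300ld5*, an immune receptor gene of the CD300 family chosen after its values were seen, was at 0 in all 6 Swiss-derived libraries and at 1.27 to 32.7 CPM in the Castle-derived ones, at least 96.0-fold lower against the floor (adjusted p = 0.069). Of its words 100% are shared with other annotated genes, so its level could not be assigned to it alone.

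Whether the difference between the sexes depended on origin was tested with strain and sex in the model. None of 17965 genes was called (0%), and 1144 had an unadjusted p under 0.05, while DESeq2 called 23 genes.

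Outside the groups, NOD/ShiLtJ is known to descend from outbred Swiss mice, and C57BL/6J is the strain of the reference genome. NOD/ShiLtJ was used in no test, and C57BL/6J only in the alternative fit with all 59 strains that have both libraries. Their levels are given as a description. In the single NOD/ShiLtJ library, a male, 16 of the 30 called genes were nearer to the Swiss-derived than to the Castle-derived mean on the log2 scale, and 7 of the 10 with few shared words were. *Gabra3* at 0.262 CPM, *Ccdc73* at 2.02 CPM, *H2-T3* at 3.48 CPM and *Klra4* at 1.42 CPM were among these, while *Psg16* at 40.5 CPM and *Slc27a2* at 0.262 CPM were not. In the female and male C57BL/6J libraries, 6 of the 30 were nearer to the Swiss-derived mean. These were *Gvin1* at 118.1 CPM, *Rps3a2* at 0.140 CPM, *Magohb* at 5.44 CPM, *Ccdc73* at 1.73 CPM, *Klra4* at 0.780 CPM and *Gm44958* at 0.0687 CPM. All 5 zinc finger array genes of chromosome 2 and all 8 array genes of chromosome 14 were nearer to the Castle-derived mean in C57BL/6J.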

How the data were processed

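RNA of subcutaneous adipose tissue was sequenced with stranded paired-end reads. The authors quantified transcripts with kallisto 0.46.1 on the GRCm38 (mm10) Ensembl transcriptome and tximport gave gene-level values. The deposited estimated counts are not whole for 30.3% of the values and were not normalized by the authors. They were rounded here per library, before the libraries of each strain were added up for the main test. The deposited TPM values, which the authors scaled for transcript length and depth to 1000000 per library, were used only in alternatives. Strain and sex were taken from the labels. The 16 libraries held no identical pair, with correlations of log2 CPM from 0.865 to 0.973.

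The 3 Swiss-derived strains were compared with the 5 Castle-derived strains in edgeR 4.0.16 (R 4.3.3) with filterByExpr, TMM, the quasi-likelihood test and the Benjamini-Hochberg adjustment at 0.05, and log2FC values are given with their SE. The shares of mitochondrially encoded counts were compared by an exact permutation test over strains, and the sex by origin term was tested in the 16 libraries with strain and sex in the model. DESeq2 1.42.0, limma 3.58.1 on log2 CPM (prior count 2) and on log2(TPM + 1) and log2(TPM + 0.1), other scalings and filters, each sex alone, all 59 strains with both libraries, and leaving out each strain were alternatives. Words of 31 bases were compared between all annotated transcripts.

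The strain groups, gene lists and tests were chosen with earlier results of these data known. Named were called protein-coding genes with a mean of at least 1 CPM and no overlap between the groups (at most 12 in each direction), called list members or else the member with the lowest p, members of the lists for futile cycles, known strain alleles and Y-linked genes, and called genes of the segments with most calls. All other genes named were chosen after their values were seen, among them *Rps3a2*, *Rpl34-ps2*, their parents and copies, *Ccdc73*, *Sectm1a*, *Clec3b*, *Gm9025*, *Gm11839*, *Klra1*, the H2 genes other than *H2-T3*, *Lep* and *Mest*. The distance to NOD/ShiLtJ and C57BL/6J was taken on log2(CPM + 0.1).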

Additional observations from a re-analysis of the deposited data

Results flagged for a closer look

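Within the 5 Castle-derived strains, 81 genes were examined for a strain mean that stood far from the others, and 7 did. Chance gives about 1 in 20 groups if the values are normally distributed, which was not tested for these means. The 3 Swiss-derived strains were too few to examine. DBA/2J stood apart for 3 genes of oxidative or thermogenic adipocytes. Its *Ucp1* mean was 290.2 CPM, compared with 7.73 to 51.8 CPM in the other 4 strains. Its *Cpt1b* mean was 76.7 CPM, compared with 12.1 to 27.2 CPM, and its *Cox7a1* mean was 13.1 CPM, compared with 3.32 to 5.94 CPM. These 3 means of DBA/2J were nearest to the Swiss-derived strains, whose means over strains were 535 ± 418, 130 ± 65.4 and 29.8 ± 8.98 CPM (SD, n = 3). CBA/J stood apart with 6.07 CPM of *Gstp2*, a glutathione transferase, compared with 3.26 to 3.89 CPM, and with 176 CPM of *Slc7a10*, compared with 107.98 to 125.9 CPM. C3H/HeJ had 0.329 CPM of *Gvin1* and 0.0165 CPM of *Gm6356*. Both were at 0 in the other 4 strains, so that any level above 0 stood apart. The second of these values is below the floor of 3 counts.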

How the results depend on the processing

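All 30 called genes kept their direction in every fit in which they were tested, but these fits use libraries from which the genes were called. Genes called higher and lower numbered 13 and 17. They numbered 86 and 1.3e+02 (218 in all) with the 16 libraries as samples, 158 and 273 with DESeq2, 10 and 9 in females, 4 and 5 in males, 24 and 33 by limma on log2(TPM + 1), 16 and 31 with a pseudocount of 0.1 (where the median of all genes shifted to a log2FC of -0.12), 19 and 52 with all 59 strains in the fit, and 0 and 0 when 10 counts were required in every library (edgeR, 1634 of 14123 genes at an unadjusted p under 0.05). That filter removes genes at 0 in 1 group, but *Slc27a2* was kept by it and was still not called (log2FC 4.25, edgeR, adjusted p = 0.085). Leaving out each strain gave 0 (without C3H/HeJ) to 16 higher and 1 (without C3H/HeJ) to 18 lower calls. From 1 (without C3H/HeJ) to 20 (without BALB/cJ) of the 30 genes were among them. For the other fits (limma on log2 CPM, the robust fit, RLE, library totals, no mitochondrial genes, no filter) both counts were within 1.5 times. The interaction gave 0 calls in edgeR under all scalings, filters and leave-outs run and 23 with DESeq2. The mitochondrially encoded difference of 4.03 percentage points was 1.36 in females and 6.69 in males, neither past the threshold, and 2.96 to 5.13 without 1 strain, where no p under 0.05 can be reached. Of 1744 values of single genes under the alternatives, 1470 kept direction and side of the threshold, 59 newly passed, 209 no longer passed and 6 changed sign. *Ddx3y* (log2FC -0.49) was at 0.70 in females, 0.11 by limma on log2 CPM and 0.093 on log2(TPM + 0.1). *Fcer1a* (1.41) was at -0.41 in females, -0.0063 on log2(TPM + 0.1) and between -0.87 (without SJL/J) and 1.95 when 1 strain was left out. The cause was not tested. No paired analysis was possible because the labels give no replicate numbers shared between strains. With 3 strains against 5, genes near the floor of 3 counts are the least precise.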
